A study of Mus musculus with 6 samples.

Results

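The 37 Hox genes described here are those whose symbol is Hoxa, Hoxb, Hoxc or Hoxd with a paralogue number and which had a probe set of their own on the array, out of 19938 genes measured in that way. Hoxb8 shared its probe set with Hoxb7 and was not measured by itself. Each of the 37 genes had 1 single-gene probe set, and the symbol alone decided membership. Expression was measured on 6 whole-transcript arrays, 3 from muscle satellite cells after 5 days of culture and 3 from freshly sorted satellite cells. Satellite cells are the stem cells of skeletal muscle. Both groups came from 2-month-old C57BL/6J mice, in which cells with β1-integrin and CXCR4 and without CD45, CD31, CD11b, Ter119 and Sca1 were sorted from muscles of the hindlimb, the abdomen and the triceps. The cultured cells then grew on collagen and laminin with 20% horse serum and a daily dose of basic FGF at 5 ng/ml. No genotype other than C57BL/6J is given. Muscles of different body positions were pooled, so no array stands for 1 position. The labels name 3 mice but not which array came from which. The p-values below therefore measure only how these samples scatter, which may be technical.

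Hox proteins are homeodomain transcription factors that give cells along the body axis their positional identity. In mammals their genes lie in 4 clusters, and their order in a cluster follows the order of their expression domains from head to tail, with low paralogue numbers toward the head and high numbers toward the tail and the tips of the limbs. Hox proteins bind DNA together with TALE homeodomain partners of the Pbx, Meis and Pknox families, and Polycomb and Trithorax proteins keep the genes silent or active in later life. In the limb, the Hox9 genes are known for the position of the forelimb, Hox10 and Hox11 genes for the upper and middle segments, and Hoxa13 and Hoxd13 for the hand and foot.

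All values are deposited log2 values, and a fold change is the cultured mean minus the fresh mean on that scale. Levels of different genes are not set against each other, since each probe set has its own brightness. A gene was called above background in a group when its mean exceeded the 95th percentile of 1027 olfactory receptor genes. Most of these receptor genes were taken to be silent in muscle cells, which was not tested. The background level was 3.30 on the cultured arrays and 3.17 on the fresh arrays. Over all probe sets the medians of single arrays were 3.10 to 3.15, and the highest value of an array was between 14.7 and 15.2, so the Hox genes were measured at the low end of the array's scale. RMA, the authors' preprocessing, is known to compress differences at that end, and whether it did so here was not tested. For probe sets with a mean above 11, the array medians were 13.7, 10.3 and 10.9 on the cultured arrays, against 13.9 on each fresh array. No Hox gene lay in that bright range. The 95th percentile of all probe sets also differed. It was 7.37, 6.42 and 6.71 on the cultured arrays and 7.38 to 7.45 on the fresh arrays. The difference between arrays thus reached below the bright range, and its part in the calls below was not tested.

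RefSeq sequences of assembly GRCm38.p6 were matched for 21 of the 37 Hox genes, which have 23 listed promoters, each from 250 bases before to 50 bases after a start. The Hoxa, Hoxb, Hoxc and Hoxd clusters lie on chromosomes 6, 11, 15 and 2. Shown first are the windows at both listed starts of Hoxa10, the Hox gene that was above background in fresh cells only, at chr6:52240805-52241104 and chr6:52234890-52235189 on the minus strand, and the window of Hoxb1 at chr11:96365508-96365807 on the plus strand, whose capitals mark a match to the Pbx-Hox motif.
Hoxa10, first window: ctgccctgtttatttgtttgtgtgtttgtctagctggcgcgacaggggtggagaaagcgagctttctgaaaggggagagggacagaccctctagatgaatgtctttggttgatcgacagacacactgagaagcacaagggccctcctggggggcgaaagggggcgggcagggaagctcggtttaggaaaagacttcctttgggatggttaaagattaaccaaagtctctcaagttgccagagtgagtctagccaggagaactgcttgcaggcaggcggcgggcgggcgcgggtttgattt
Hoxa10, second window: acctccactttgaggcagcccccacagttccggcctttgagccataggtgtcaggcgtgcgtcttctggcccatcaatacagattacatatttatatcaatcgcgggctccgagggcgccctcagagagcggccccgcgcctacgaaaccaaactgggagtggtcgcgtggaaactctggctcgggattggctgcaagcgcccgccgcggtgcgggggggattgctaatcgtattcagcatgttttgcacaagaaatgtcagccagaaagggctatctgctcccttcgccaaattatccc
Hoxb1: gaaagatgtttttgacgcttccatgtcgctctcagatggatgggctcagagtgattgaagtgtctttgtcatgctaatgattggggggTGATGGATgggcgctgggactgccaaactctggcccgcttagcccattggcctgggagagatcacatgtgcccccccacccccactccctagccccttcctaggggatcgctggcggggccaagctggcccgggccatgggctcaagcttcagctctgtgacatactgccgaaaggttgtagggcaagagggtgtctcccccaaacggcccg
The motifs were searched on both strands as TGANTCA for AP-1, the dimer that holds Fos, as TGATNNAT for Pbx-Hox and as TGACAG for Meis. The AP-1 letters were in 1 of the 23 Hox promoters, 4.35%, against 7.81% of the 32851 promoters in the table. That match was TGACTCA, at bases 231 to 237 of a Hoxd11 window. The Pbx-Hox letters were in 3 of the 23 promoters, 13%, against 8.85% of all promoters, and these belonged to Hoxb1, Hoxa2 and Hoxd11. The Meis letters were in 2 of the 23, those of Hoxa2 and Hoxa3, 8.70% against 19.2% of all promoters. No match overlapped another. As 21 of the 37 genes had a listed promoter, these shares describe the listed promoters only, and a comparison of the Hox genes as a set is void. A match describes the letters in the window and is not a binding site.

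The Hox clusters also hold microRNA genes, and the mature sequences of those measured on the array are shown because they fall into groups by their seed, bases 2 to 8, which is in capitals.
miR-196a-5p: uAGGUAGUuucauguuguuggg
miR-196b-5p: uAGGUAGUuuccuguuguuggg
miR-10a-5p: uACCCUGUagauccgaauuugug
miR-10b-5p: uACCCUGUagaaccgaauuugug
miR-615-5p: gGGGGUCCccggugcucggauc
miR-615-3p: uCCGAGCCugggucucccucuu
The miR-196 sequences share the seed AGGUAGU and the miR-10 sequences share ACCCUGU. The arms of miR-615 share no seed with them.

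The Hox genes lay close to background in both groups. In cultured cells 23 of the 37 were above it, 62.2%, and in fresh cells 24, 64.9%. Over all 19938 genes the shares were 50.7% in cultured cells and 53.1% in fresh cells. The same 23 genes were above background in both groups, 13 were within it in both, and Hoxa10 alone was above it in fresh cells only. The cultured mean of Hoxa10, 3.23, also exceeded the fresh level of 3.17. Under a stricter level, the 99th percentile of the olfactory receptor genes, 7 Hox genes remained in cultured cells and 12 in fresh cells. That stricter level was 4.13 on the cultured arrays and 3.90 on the fresh arrays. As the levels differ, these counts do not compare expression between the groups. Hoxd9 averaged 4.10 in cultured cells and 3.91 in fresh cells, yet passed in fresh cells only.

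A probe set above the olfactory receptor level need not by itself be a sign of transcription. A set of 63 other homeobox genes was examined for this purpose once the values were known. Of these 63, 48 lay above the same level in cultured cells, 76.2%, and 45 in fresh cells, 71.4%. They included genes of gut, pancreas and brain. Cdx1, an intestinal factor, averaged 4.83 in cultured cells and 4.64 in fresh cells. Pdx1, a pancreatic factor, averaged 3.51 and Gsx1, a factor of the embryonic brain, 4.22 in cultured cells, and in fresh cells they averaged 3.76 and 3.95. Their relatives differed. Cdx2 averaged 3.97 in cultured cells and 3.79 in fresh cells. Cdx4, at 1.83 and 1.75, and Gsx2, at 2.60 and 2.85, were within background in both groups. These genes were picked after the values were seen, and whether the sorted cells transcribe them was not tested. Measured against the 95th percentile of these 63 genes, which was 5.53 in cultured cells and 5.14 in fresh cells, no Hox gene was above in cultured cells and Hoxc9 alone was above in fresh cells. The cultured mean of Hoxc9, 5.47, also exceeded the fresh level.

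**Figure D1:**
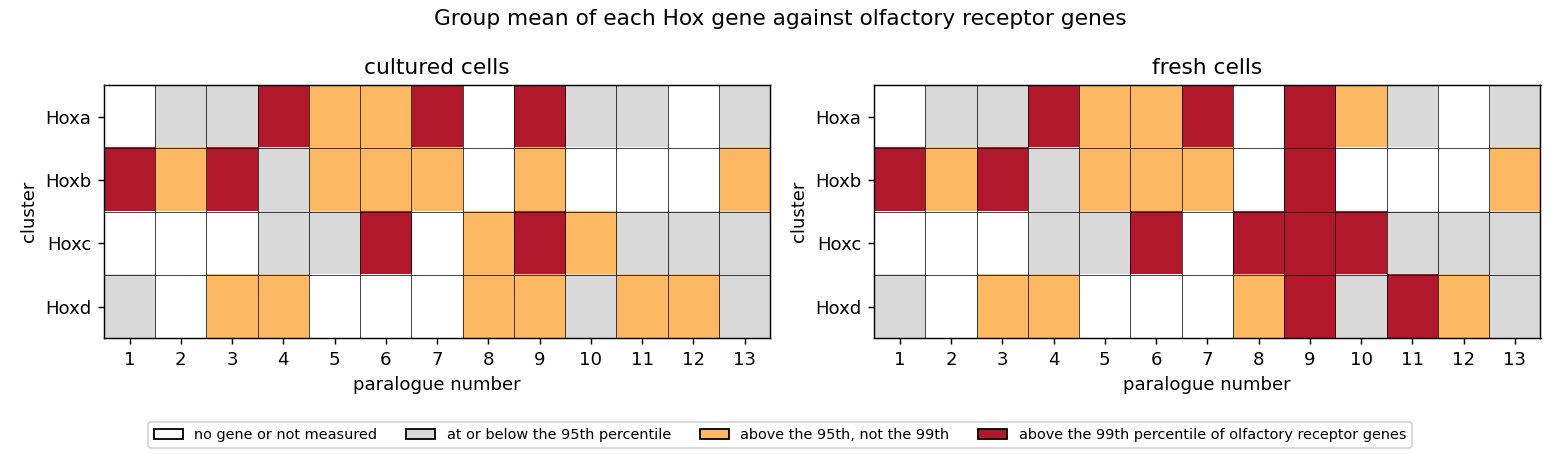
Each square is a Hox gene, with the clusters as rows and the paralogue numbers from 1 to 13 as columns, for cultured cells on the left and fresh cells on the right. The colours show whether the mean of 3 arrays lay at or below the 95th percentile of 1027 olfactory receptor genes, between the 95th and the 99th, or above the 99th. Paralogues 6 to 9 were above the 95th percentile wherever measured, and most of paralogues 11 to 13 were not, a grouping made after the values were seen.

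By cluster, the genes above background in cultured cells were 5 of 10 in Hoxa, 8 of 9 in Hoxb, 4 of 9 in Hoxc and 6 of 9 in Hoxd. In fresh cells they were 6 of 10 in Hoxa, and the same numbers as in cultured cells in the other clusters. By position in the cluster, 4 of the 7 genes of paralogues 1 to 3 were above in both groups, and 11 of the 14 of paralogues 4 to 8. Of the 16 genes of paralogues 9 to 13, 8 were above in cultured cells and 9 in fresh cells. All 11 measured members of paralogues 6, 7, 8 and 9 were above background in both groups. Of the 4 Hox13 genes only Hoxb13, a gene of the tail end of the trunk, was, and the hand and foot genes Hoxa13 and Hoxd13 were within background. The block of paralogues 6 to 9 was picked after the values were seen. Within it, Hoxa6, Hoxb7 and Hoxd8 did not exceed the background of the same array on every array. Of the other homeobox genes, 76.2% in cultured cells and 71.4% in fresh cells passed the same level.

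The head-ward genes, paralogues 1 to 3, pattern the hindbrain and neck. Hoxb1, a gene of hindbrain segment identity, was at 4.15, 4.09 and 4.39 on cultured replicates 1, 2 and 3, and at 4.13, 4.16 and 3.86 on fresh replicates 1, 2 and 3. Its groups overlapped. Hoxb2 was at 3.54, 3.44 and 3.53 in cultured cells and at 3.54, 3.83 and 3.76 in fresh cells, with 1 cultured value just above the lowest fresh value. Hoxb3 averaged 4.54 ± 0.28 in cultured cells and 4.48 ± 0.09 in fresh cells (SD, n = 3 each), and was above the stricter level in both. Hoxd3 averaged 3.40 ± 0.20 in cultured cells and 3.29 ± 0.12 in fresh cells, just above background. Hoxa2, Hoxa3 and Hoxd1 stayed within background, with group means between 2.30 and 2.71.

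The central genes, paralogues 4 to 8, pattern the neck, the forelimb level and the thorax. Hoxa4 was at 4.59, 4.72 and 4.54 in cultured cells and at 4.73, 4.81 and 4.80 in fresh cells. Hoxa7 was at 4.46, 4.36 and 4.35 in cultured cells and at 4.50, 4.58 and 4.49 in fresh cells. For both genes every cultured value lay below every fresh value, by small distances, with fold changes of -0.16 ± 0.13 for Hoxa4 and -0.13 ± 0.12 for Hoxa7 (SE). Hoxc6, a gene of the thoracic region, was at 5.03, 4.26 and 4.55 in cultured cells and at 4.65, 4.23 and 4.26 in fresh cells. Replicate 1 was the highest in both groups and the groups overlapped. Hoxb7 was at 3.85, 3.85 and 3.97 in cultured cells and at 3.10, 3.46 and 4.06 in fresh cells. Its cultured values were close together, while the fresh values ran from below background on replicate 1 to above every cultured value on replicate 3. Hoxd8 was at 3.44, 3.73 and 3.44 in cultured cells and at 3.43, 3.57 and 3.20 in fresh cells, which overlapped. Hoxc8 averaged 3.97 ± 0.27 in cultured cells and 3.99 ± 0.16 in fresh cells. The means of Hoxa5, Hoxa6, Hoxb5, Hoxb6 and Hoxd4 lay between 3.30 and 3.78, above background in both groups. Hoxb4, Hoxc4 and Hoxc5 stayed within background, between 2.54 and 3.06.

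The tail-ward genes, paralogues 9 to 13, pattern the lumbar and sacral levels and the limb. Hoxc9 was at 5.60, 5.38 and 5.43 in cultured cells and at 5.96, 5.73 and 5.34 in fresh cells. The fresh range held all the cultured values. Hoxa9 was at 4.53, 4.38 and 4.59 in cultured cells and at 4.09, 4.60 and 4.01 in fresh cells, with fresh replicate 2 above all the cultured values. Hoxb9 was at 3.69, 3.96 and 4.21 in cultured cells and at 4.30, 4.17 and 4.04 in fresh cells, with overlap. Hoxd9 was at 3.80, 4.14 and 4.36 in cultured cells and at 3.93, 3.56 and 4.25 in fresh cells, also with overlap. The 4 Hox9 genes were thus above background on every array of both groups. Hoxb13 was at 3.51, 3.26 and 3.26 in cultured cells and at 3.88, 3.62 and 3.57 in fresh cells, so that every cultured value lay below every fresh value and 2 of the 3 cultured values lay within background. Hoxd11 averaged 4.07 ± 0.22 in cultured cells and 4.11 ± 0.17 in fresh cells, and Hoxd12 averaged 3.38 ± 0.13 in cultured cells and 3.54 ± 0.24 in fresh cells. Hoxa11, Hoxa13, Hoxc11, Hoxc12, Hoxc13, Hoxd10 and Hoxd13 stayed within background, with group means between 2.32 and 3.29.

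**Figure D2:**
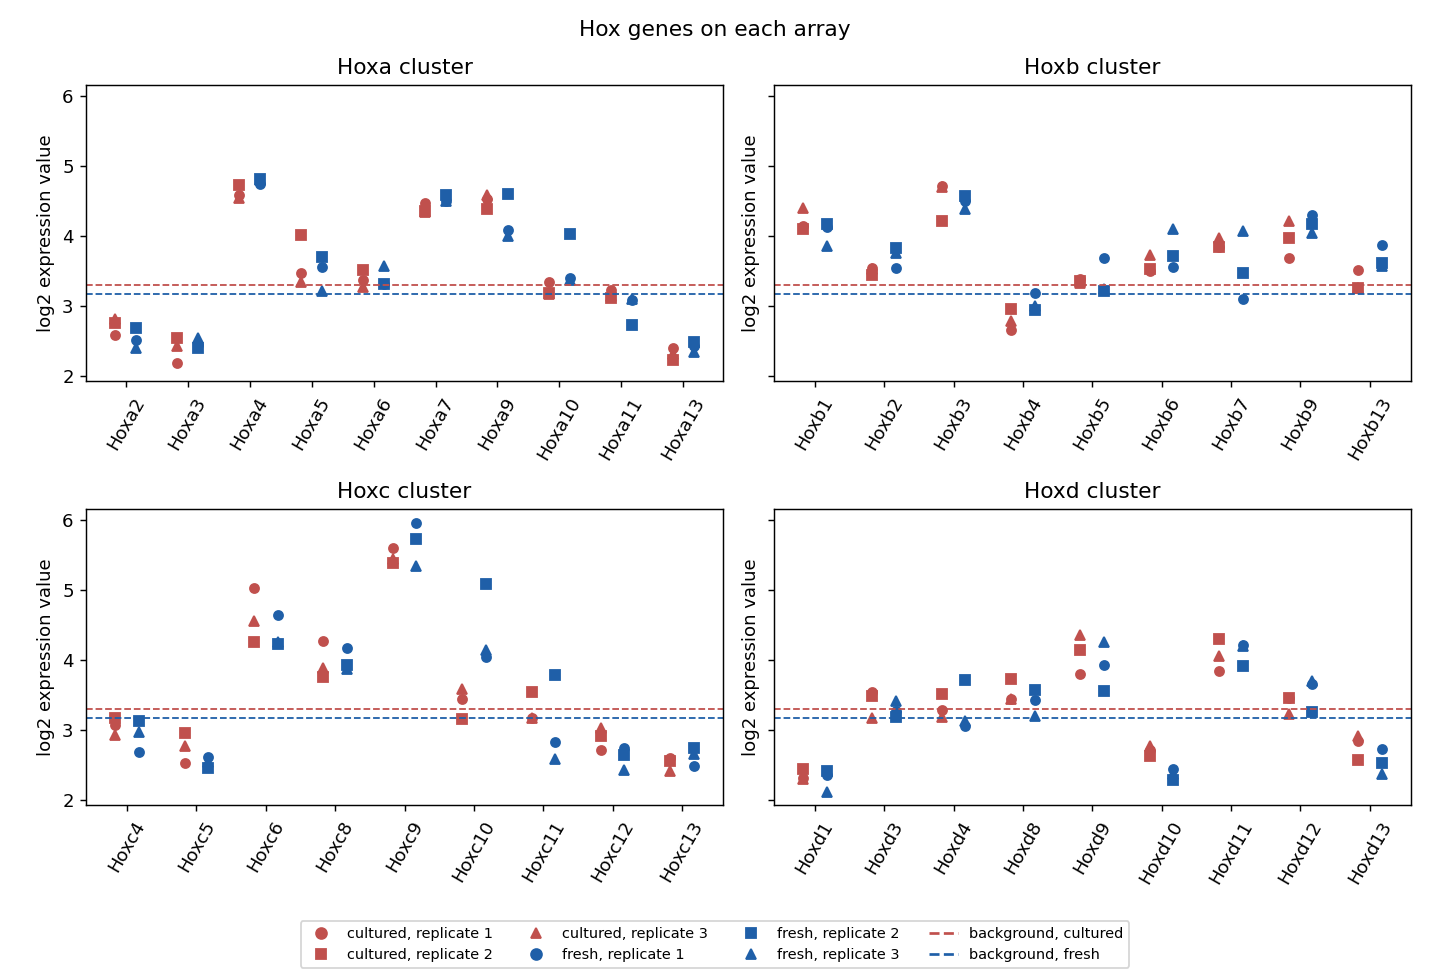
Each point is the log2 value of a Hox gene on 1 array, with the 4 clusters as panels and the genes along the horizontal axis; cultured arrays are red, fresh arrays are blue, and dashed lines mark the background of each group at 3.30 and 3.17. The values run from about 2 to 6, most genes hold both groups in the same narrow band, and Hoxc10 is the gene whose groups stand farthest apart.

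Cultured cells were then set against fresh cells gene by gene. With limma and Benjamini-Hochberg adjustment over all 19938 genes at an adjusted p of 0.05, 0 of the 37 Hox genes were lower in cultured cells, where 3.37% of all genes were, and 0 were higher, where 0.953% of all genes were. At an unadjusted p of 0.05 there were 2, Hoxc10 lower and Hoxd10 higher, which is 5.41% of the Hox genes against 17.6% of all genes. The median fold change of the 37 genes was 0.03 and their SD was 0.26, against a median of 0.04 and an SD of 0.57 over all genes. A small spread was not particular to the Hox genes. The SD was 0.20 over the olfactory receptor genes and 0.19 over the 63 other homeobox genes, with 3.70% and 14.3% at an unadjusted p of 0.05. Over all genes in the range of the Hox means the SD was 0.46, and 18.1% were at that p. Of the 37 fold changes 19 were positive and 18 negative. For 36 of the 37, all but Hoxc10, the 95% interval of the fold change lay within a log2 difference of 1 in either direction, that is, within 2-fold, as it did for 16417 of the 19938 genes. The interval lay within 0.5 in either direction for 13 of the 37, so smaller differences are not shown to be absent. For the Hox genes within background in both groups, which also number 13, a narrow interval does not bound a change in RNA.

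The arrays of 5 Hox genes did not overlap with the cultured values lower, namely Hoxa4, Hoxa7, Hoxa10, Hoxb13 and Hoxc10, where 10.3% of all genes had this pattern. The arrays of 2 did not overlap with the cultured values higher, namely Hoxa11 and Hoxd10, where 12.9% of all genes did. Both of these were within background in both groups. Hoxd10 was at 2.72, 2.63 and 2.78 in cultured cells and at 2.45, 2.29 and 2.37 in fresh cells, with a fold change of 0.34 ± 0.13 (SE) and an adjusted p of 0.216. The spread between arrays was not wider for Hox genes than over all genes. Their median SD was 0.145 in cultured cells and 0.167 in fresh cells. Over all genes it was 0.193 in cultured cells and 0.182 in fresh cells.

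**Figure D3:**
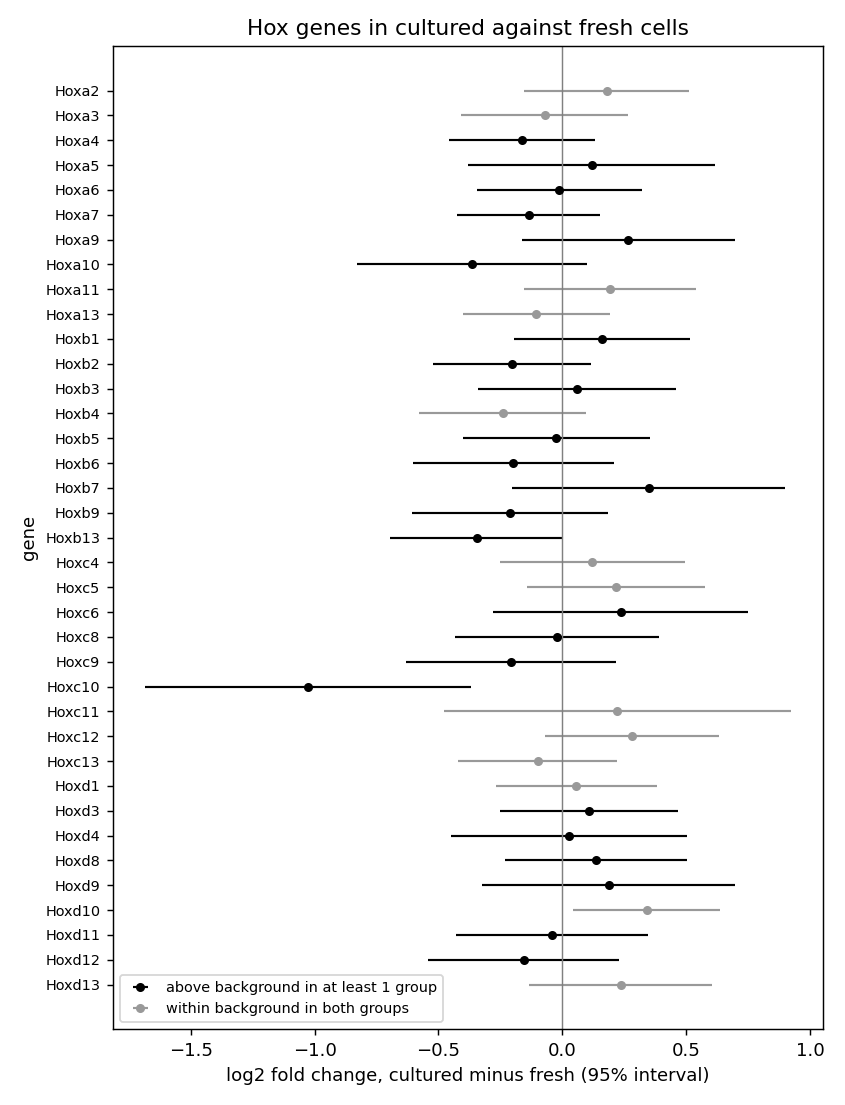
Points are log2 fold changes, cultured minus fresh, of the 37 Hox genes with their 95% intervals, black where the gene was above background in at least 1 group and grey where it was within background in both. The intervals of 35 genes include 0; those of Hoxc10, from -1.68 to -0.37, and Hoxd10, from 0.04 to 0.64, do not, and no gene passed the test after adjustment.

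The widest difference was that of Hoxc10, a gene of the lumbar level and the hindlimb. It was at 3.44, 3.16 and 3.59 in cultured cells and at 4.04, 5.09 and 4.14 in fresh cells. Every cultured value lay below every fresh value, 1 of the 3 cultured values lay within background, and fresh replicate 2 stood above the other fresh arrays. The fold change was -1.03 ± 0.28 (SE), 2.04-fold lower in cultured cells, with a 95% interval from -1.68 to -0.37 and an adjusted p of 0.0996. It did not pass on the deposited values, but passed after a further quantile normalization, with an adjusted p of 0.0275, and with cyclic loess, with an adjusted p of 0.0285. Without fresh replicate 2 the fold change was -0.69 and the adjusted p was 0.148. Over the 13 other settings the fold change ran from -1.22 to -0.69 and the adjusted p from 0.0275 to 0.211.

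Hoxa10, the paralogue of Hoxc10 in the Hoxa cluster, was at 3.34, 3.19 and 3.17 in cultured cells and at 3.39, 4.03 and 3.37 in fresh cells. All cultured values were below all fresh values, and fresh replicate 2 again stood above the others. Its mean was within background in cultured cells, so the difference taken against that level was 0.29, and the fitted fold change was -0.36 ± 0.20 (SE) with an adjusted p of 0.406. Without fresh replicate 2 it was -0.15. The remaining Hox10 gene, Hoxd10, lay within background on every array. Among the genes above background, the next lowest fold changes were -0.35 ± 0.15 for Hoxb13, with an adjusted p of 0.288, -0.21 ± 0.17 for Hoxb9, -0.21 ± 0.18 for Hoxc9, which was 0.15 after quantile normalization, and -0.20 ± 0.14 for Hoxb2. The highest were 0.35 ± 0.24 for Hoxb7, with an adjusted p of 0.513, 0.27 ± 0.19 for Hoxa9, 0.24 ± 0.22 for Hoxc6, 0.19 ± 0.22 for Hoxd9, 0.16 ± 0.15 for Hoxb1 and 0.14 ± 0.16 for Hoxd8. None of these 10 values passed the test.

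Several Hox genes differed between the fresh arrays themselves, a description made after their values were seen. Fresh replicate 2 lay above the mean of the other fresh arrays by 1.07 for Hoxc11, 1.00 for Hoxc10, 0.65 for Hoxa10, 0.62 for Hoxd4 and 0.56 for Hoxa9. Hoxc11, a limb paralogue beside Hoxc10 in the cluster, was at 3.17, 3.54 and 3.17 in cultured cells and at 2.83, 3.78 and 2.59 in fresh cells. It was above background on replicate 2 of each group and within it on the other arrays. Hoxd4 was at 3.29, 3.52 and 3.18 in cultured cells and at 3.06, 3.72 and 3.13 in fresh cells. In both genes replicate 2 was the highest array of each group. Not all genes went this way: fresh replicate 2 lay below the mean of the other fresh arrays by a difference of -0.53 for Hoxd9 and -0.42 for Hoxd12. Fresh replicate 2 was the highest fresh array for 17 of the 37 Hox genes, and for 6600 of all 19938 genes. Of the 6 Hox10 and Hox11 genes only Hoxa10, Hoxc10 and Hoxc11 were highest on fresh replicate 2, while Hoxa11, Hoxd11 and Hoxd10 lay below the other fresh arrays there, with differences of -0.36, -0.29 and -0.12. The median difference of fresh replicate 2 from the other fresh arrays was 0.03 over the 16 genes of paralogues 9 to 13, 0.04 over all 37 Hox genes and -0.0013 over all genes. The range between fresh arrays exceeded 1 for 2 Hox genes, Hoxc11 at 1.19 and Hoxc10 at 1.05, as it did for 3.79% of all genes. The range between cultured arrays exceeded 1 for 0 of the 37, and for 9.11% of all genes. It was widest for Hoxc6, at 0.76.

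Markers of other cells also differed between the fresh arrays. Cd34, which both fibro-adipogenic cells and quiescent satellite cells carry, was at 3.43, 4.02 and 3.47 in cultured cells and at 4.11, 5.56 and 4.45 in fresh cells, with replicate 2 the highest in both groups. Notch3, a receptor of mural cells and satellite cells, was at 4.46, 4.48 and 4.44 in cultured cells and at 5.08, 5.73 and 4.90 in fresh cells, again highest on fresh replicate 2. Both genes were picked for this pattern. Other mural markers went the other way: Rgs5 was at 3.12, 2.52 and 2.65, Acta2 at 7.26, 6.24 and 6.80 and Pdgfrb at 3.13, 3.02 and 3.37 on the fresh arrays, lowest on replicate 2. The summed linear level of 5 mural markers ran from 164.6 to 333.8 in cultured cells and from 152.2 to 214.0 in fresh cells, where it was lowest on replicate 2. Of 7 measured fibro-adipogenic markers, 3 were above background in cultured cells and 5 in fresh cells, where 50.7% and 53.1% of all genes were. Lower in cultured cells were 2 of the 7, Dcn and Dpt, both within background there, beside 3.37% of all genes. The summed linear level of the 7 ran from 79.7 to 84.6 in cultured cells and from 340.2 to 620.7 in fresh cells. It was highest on fresh replicate 1, not on fresh replicate 2, as was Dcn at 8.53, 7.78 and 5.86 on the fresh arrays. Pdgfra, the receptor that defines these cells, averaged 3.62 in cultured cells and 3.35 in fresh cells, Lum and Dpp4 were within background in both groups, and Ly6a was not measured by itself. The tendon genes Tnmd, Thbs4 and Fmod were highest on fresh replicate 1, at 4.86, 6.11 and 6.08, and the summed level of 5 tendon markers ran from 88.9 to 108.7 in cultured cells and from 54.5 to 211.7 in fresh cells. Of 5 endothelial markers only Tie1 was above background, in both groups. Of 4 blood markers none was above background in cultured cells and only Cd68 in fresh cells, with Ptprc, which encodes the CD45 used in the sort, within background throughout. The part of these cells, and of the muscle from which the cells on an array came, in the Hox values was not tested.

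Markers of the labelled cell type were present in both groups. Of 11 satellite cell markers 10 were above background in cultured cells and all 11 in fresh cells. Over all genes the shares were 50.7% and 53.1%. Of the 11, 8 were lower in cultured cells, where 3.37% of all genes were. The calls of Vcam1 and Calcr were lost without fresh replicate 2, without fresh replicate 3 or without cultured replicate 3. Pax7, the defining transcription factor, averaged 5.14 ± 0.14 in cultured cells and 6.47 ± 0.23 in fresh cells, a fold change of -1.33 with an adjusted p of 0.00378. Myod1, the myoblast factor, averaged 8.77 ± 0.42 in cultured cells and 9.18 ± 0.49 in fresh cells. Of the other 4 myoblast markers, Myog, which drives differentiation, was higher in cultured cells, with a fold change of 2.28 and an adjusted p of 0.0465, and the intermediate filament gene Des was lower, at -1.21 with an adjusted p of 0.0382. Both calls ended when any 1 of the fresh arrays was left out, that of Myog also without cultured replicate 2 and that of Des also without cultured replicate 3, with adjusted p of up to 0.166 for Myog and 0.303 for Des over all settings. Mymk and Mymx did not pass. After quantile normalization the fold change was -0.95 for Pax7, -0.49 for Des and 2.80 for Myog. The limma adjusted p was then 0.00566 for Pax7, 0.303 for Des and 0.0283 for Myog. In such bulk samples fewer cells of a type and less RNA per cell cannot be told apart.

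**Figure D4:**
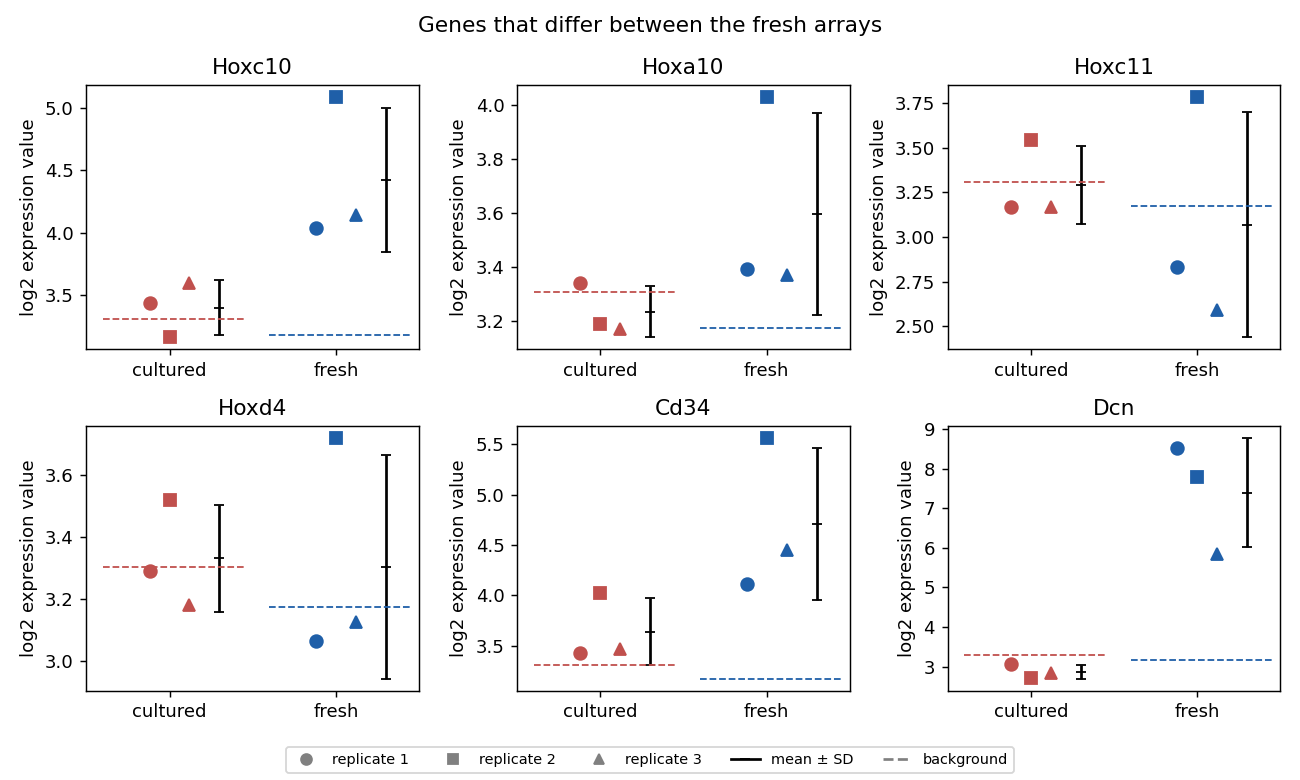
Points are the log2 values of 4 Hox genes and of Cd34 and Dcn, markers of fibro-adipogenic cells, on 3 cultured arrays (red, left) and 3 fresh arrays (blue, right), with the group mean ± SD in black and the background dashed; the genes were chosen after their values were seen. Fresh replicate 2, the square, is the highest fresh array for Hoxc10, Hoxa10, Hoxc11, Hoxd4 and Cd34, but not for Dcn.

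TALE homeodomain proteins are the DNA-binding partners of Hox proteins. Of 8 measured genes 0 were lower and 0 higher, where 3.37% and 0.953% of all genes were. Of the 8, 5 were above background in both groups, namely Meis3, Pbx2, Pbx4, Pknox1 and Pknox2. Over all genes 50.7% were above background in cultured cells and 53.1% in fresh cells. The median fold change of the 8 TALE genes was 0.11. Meis3, a partner in the hindbrain, was at 4.45, 4.53 and 4.29 in cultured cells and at 5.03, 3.66 and 3.98 in fresh cells, so that the fresh arrays lay on both sides of the cultured ones. Its fold change of 0.20 became -0.0851 without fresh replicate 2. Pknox1 was at 4.42, 4.08 and 4.27 in cultured cells and at 4.25, 4.56 and 5.22 in fresh cells, with a fold change of -0.42 and an adjusted p of 0.440. Meis1 and Pbx3 stayed within background. Their fold changes were -0.40 for Meis1 (adjusted p 0.335) and 0.25 for Pbx3 (adjusted p 0.439).

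The next list held genes that act upstream of Hox genes or keep them on or off. Of 38 listed genes 35 were measured, 3 were lower in cultured cells and 1 was higher, where 3.37% and 0.953% of all genes were, and the list median was 0.05, against 0.04 over all genes. Egr2, which switches on Hox genes in hindbrain segments and is also an immediate early gene, was at 3.63, 4.13 and 3.28 in cultured cells and at 7.19, 7.46 and 7.54 in fresh cells. The groups were far apart, with a fold change of -3.71 ± 0.23 (SE) and an adjusted p of 9.09e-05. Kdm6b, a demethylase that removes the Polycomb mark from histone H3, was at 4.35, 4.72 and 4.21 in cultured cells and at 6.12, 6.93 and 6.77 in fresh cells. Its fold change was -2.18 ± 0.24 (SE), with an adjusted p of 0.00226, and the groups did not overlap. Both of these calls held in all 13 other settings.

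Aldh1a1, an enzyme that makes retinoic acid, the inducer of head-ward Hox genes in the embryo, was at 3.22, 3.30 and 3.15 in cultured cells and at 4.38, 5.40 and 5.28 in fresh cells. It was within background in cultured cells, so the difference was at least 1.72 against that level, and the fitted value was -1.80 ± 0.26 with an adjusted p of 0.00802. Leaving out cultured replicate 3 ended the call (adjusted p 0.0512). Men1, menin, a partner of the methyltransferases that keep Hox genes active, was at 4.84, 4.84 and 4.86 in cultured cells and at 4.22, 4.26 and 4.23 in fresh cells. Its arrays were tightly grouped, and it rose by 0.61 ± 0.12 with an adjusted p of 0.0322. That call was lost without any 1 of the 6 arrays, at adjusted p of up to 0.132, and held in 5 of 13 settings. Rnf2, the catalytic subunit of Polycomb complex PRC1, was at 3.58, 2.75 and 3.77 in cultured cells and at 3.76, 4.68 and 5.36 in fresh cells, a fold change of -1.23 with an adjusted p of 0.173.

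The remaining Polycomb and Trithorax genes did not pass. Ezh2, the methyltransferase of Polycomb complex PRC2, was at 6.61, 5.05 and 5.23 in cultured cells and at 4.93, 5.15 and 5.04 in fresh cells, high on cultured replicate 1 only. Its relative Ezh1 was at 3.28, 3.23 and 3.61 in cultured cells and at 3.96, 4.14 and 3.76 in fresh cells, with the cultured values all lower and an adjusted p of 0.112. Kmt2a, the Trithorax-type methyltransferase of Hox genes, was at 4.55, 4.37 and 4.53 in cultured cells and at 4.48, 5.00 and 4.77 in fresh cells. The retinoic acid receptors Rarb and Rarg had fold changes of -0.46 and -0.44 with adjusted p of 0.139 and 0.166, Rarb within background in cultured cells. Cdx2 and Gbx2, whose main roles are in the embryo, were at 0.18 and 0.41 with adjusted p of 0.531 and 0.251.

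**Figure D5:**
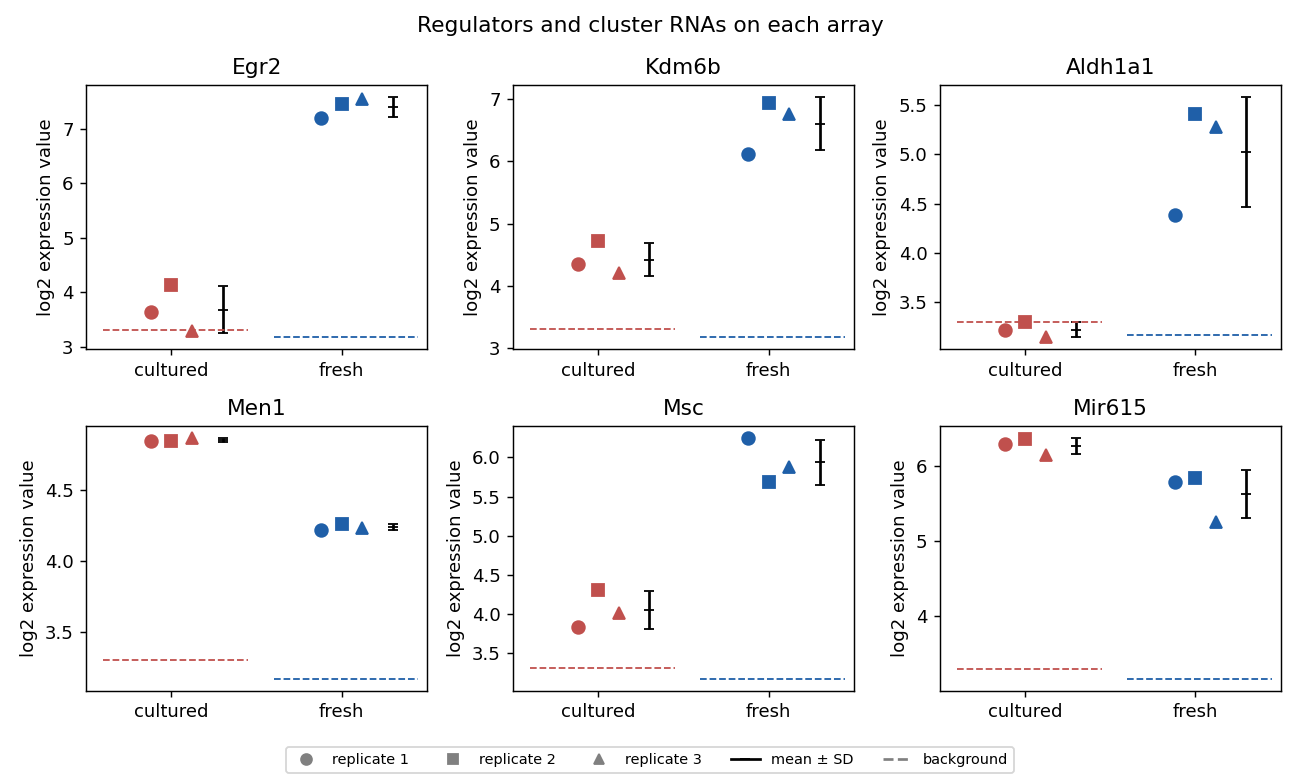
Points are the log2 values of 4 upstream regulators of Hox genes (Egr2, Kdm6b, Aldh1a1 and Men1), the positional factor Msc and the cluster microRNA gene Mir615 on 3 cultured arrays (red, left) and 3 fresh arrays (blue, right), with the group mean ± SD in black and the background dashed; the vertical axes differ between panels. Egr2, Kdm6b, Aldh1a1 and Msc were lower and Men1 higher in cultured cells, and Mir615 did not pass the test.

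Other transcription factors of positional identity were listed as well. Of 37 listed genes 36 were measured, 1 was lower in cultured cells and 0 were higher, beside the same shares over all genes, and the list median was 0.10. The gene called lower was Msc, musculin, a factor of head muscle and of myoblasts. Msc was at 3.83, 4.31 and 4.02 in cultured cells and at 6.25, 5.68 and 5.88 in fresh cells, with a fold change of -1.88 ± 0.20 (SE) and an adjusted p of 0.00174, a call that held in all 13 other settings. Emx2, which patterns the limb girdle among other organs, was at 3.71, 3.39 and 3.88 in cultured cells and at 3.03, 2.96 and 3.38 in fresh cells. Its fold change was 0.54 with an adjusted p of 0.177, and it was within background in fresh cells. Irx5 was at 4.66, 4.48 and 3.68 in cultured cells and at 4.93, 4.45 and 5.06 in fresh cells, and En1 at 4.31, 4.32 and 4.41 in cultured cells and at 4.36, 5.28 and 4.75 in fresh cells, with adjusted p of 0.383 and 0.363.

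The factors that distinguish hindlimb from forelimb did not pass the test. Tbx4, a factor of hindlimb identity, was at 3.72, 3.81 and 4.01 in cultured cells and at 3.78, 3.62 and 3.70 in fresh cells. Pitx1, its hindlimb partner, was at 4.13, 3.54 and 3.66 in cultured cells and at 3.65, 3.70 and 3.84 in fresh cells. Tbx5, the forelimb counterpart of Tbx4, was at 2.18, 2.73 and 2.65 in cultured cells and at 2.75, 2.01 and 1.92 in fresh cells. Tbx4 and Pitx1 thus lay just above background on all arrays and Tbx5 within it on all. As stated above, such a level need not be a sign of transcription, so these values do not assign a limb identity. Lbx1, a factor of muscle precursors that migrate into the limb, averaged 4.75 ± 0.31 in cultured cells and 4.66 ± 0.11 in fresh cells. Pax3, which marks precursors of trunk and limb muscle, was at 3.51, 3.34 and 3.59 in cultured cells and at 3.68, 3.59 and 4.28 in fresh cells, with all cultured values below all fresh ones and an adjusted p of 0.406.

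Of 17 RNA genes within the Hox clusters, 10 were measured and 3 were above background in both groups, namely Hoxd3os1, Mir196b and Mir615. Over all genes 50.7% were above background in cultured cells and 53.1% in fresh cells. None of the 10 was called lower or higher, where 3.37% and 0.953% of all genes were. The median fold change of the 10 was 0.09. The probe sets read transcripts of the microRNA's locus, not the mature microRNAs printed above. Mir615, which lies inside the RefSeq span of Hoxc5, was at 6.28, 6.35 and 6.15 in cultured cells and at 5.78, 5.83 and 5.25 in fresh cells. Its cultured values all lay above its fresh values, with a fold change of 0.64 ± 0.19 (SE) and an adjusted p of 0.115. It passed in 1 of the 13 other settings, quantile normalization, with a fold change of 1.15 and an adjusted p of 0.0448, and in all 13 the fold change ran from 0.45 to 1.15. Hoxc5 itself was within background in both groups, at a mean of 2.76 in cultured cells and 2.54 in fresh cells. Transcripts that cross this span cannot be told apart from those of Mir615.

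Mir196b was at 3.43, 3.42 and 3.24 in cultured cells and at 3.65, 3.19 and 3.78 in fresh cells, a fold change of -0.18. Mir196a-1, whose mature product has the same seed, lay within background at 2.88, 2.71 and 2.81 in cultured cells and at 2.81, 2.53 and 2.40 in fresh cells. Both microRNA genes of the other seed group, Mir10a inside Hoxb3 and Mir10b inside Hoxd3 and Hoxd4, lay within background in both groups. The means of Hoxb3, Hoxd3 and Hoxd4 lay above it. Against the 95th percentile of olfactory receptor genes on the same array, Hoxd4 was above on only 1 of 3 arrays in each group. Hoxd3 was above on 2 of 3 in each group. Haglr, the long noncoding RNA antisense to the Hoxd cluster, was within background, with a fold change of 0.16.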

How the data were processed

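RNA of cultured and fresh satellite cells was hybridised to Affymetrix whole-transcript arrays. The authors deposited log2 expression values for 35556 probe sets on all 6 arrays; RMA and oligo are named in the submitters' processing notes, without versions. The sources used here do not give the genome build of the probe annotation. A single gene was annotated for 21789 probe sets, several genes for 1621 and none for 12146. The probe set with the highest mean was kept for each of 19938 genes.

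Differences were tested with limma 3.58.1 in R 4.3.3 (lmFit and eBayes with group as sole term, Benjamini-Hochberg adjustment over all genes, threshold 0.05, dim genes kept). The members and lists were chosen with earlier results of these data known. Values per array are given for the 6 highest and 6 lowest fold changes among Hox genes above background and for Hox genes above background in 1 group only. Of the lists of cofactors, regulators, positional factors and cluster RNAs, members past the test and the 4 with the largest absolute fold change are named. Of the cell type markers, only those beside a result are named, and further genes named were chosen after their values were seen. Code was tested on simulated data. The number of arrays limits the precision. Alternatives were a block for the replicate number, array weights, a robust trended prior, quantile and cyclic loess normalization, a filter on dim genes, the mean of probe sets, other backgrounds and leaving out each array. Promoters and microRNAs come from RefSeq tables of GRCm38.p6.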

Additional observations from a re-analysis of the deposited data

How the results depend on the processing

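Over 13 other settings the count of Hox genes higher in cultured cells was 0 throughout, and the count lower was 0 in 11 and 1 (Hoxc10) after quantile normalization and with cyclic loess. Of 156 values for 12 named Hox genes, 153 kept their direction and their side of the threshold, 2 were those of Hoxc10, and Hoxc9 turned to 0.15 after quantile normalization; the cause was not tested. The Hox median fold change ran from -0.04 to 0.06. Meis3 turned to -0.0851 without fresh replicate 2, and ran from -0.0851 to 0.60 over the arrays left out. Over all genes, 861 passed, against 1742 with array weights, 1592 after quantile normalization, 1505 with cyclic loess and between 448 (without cultured replicate 3) and 1517 (without cultured replicate 1) when 1 array was left out; without fresh replicate 2 or 3 it was 478 and 471. The labels do not say whether equal replicate numbers pair the samples. The correlations of same-numbered deviations from the group means over all genes were -0.09, -0.14 and 0.03. Those of unlike-numbered arrays ran from -0.07 to 0.15, and 3 arrays per group cannot settle whether a pairing exists. With the replicate number as a replicate block 662 genes passed, no Hox gene did, Hoxc10 had an adjusted p of 0.173, and Men1 lost its call at 0.113. The count of Hox genes above background depended on the level: in cultured cells it was 7 at the 99th percentile, 14 when every array had to exceed its own percentile and 0 against the other homeobox genes, and in fresh cells 12 at the 99th percentile, 18 on every array and 1 against the other homeobox genes, the last level being added after the data were seen. Each level was taken from the group or array itself, so these counts do not compare expression between the groups. Most Hox genes lay near background, which limits how small a difference these arrays can show.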
